A study of Mus musculus with 16 samples.

Results

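The genes described are 35 p53 targets and DNA damage genes, chosen by name from a list with earlier results of these data known. Of them 33 had an annotated spot, among 20863 genes that did, and where a gene had several the one with the highest mean was used. All 33 passed the filter on dim signals, and Trp53 and Bax were not analysed here. By role, 2 belonged to p53 and its feedback, 10 to cell cycle arrest, 11 to cell death, 5 to stress and metabolism, and 5 to DNA repair and nucleotide supply.

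Whole-lung RNA from C57BL/6 mice aged 9 to 12 weeks was hybridised to single-colour microarrays, 1 array for each of 16 samples. The study crossed bleomycin with an oligonucleotide called a target site blocker (TSB), which shields a microRNA site, here in the Cav1 (caveolin-1) transcript. The groups were phosphate-buffered saline (PBS) with a control TSB (n = 2), PBS with the CAV1 TSB (n = 2), bleomycin with a control TSB (n = 6) and bleomycin with the CAV1 TSB (n = 6). Each TSB went into the trachea on 3 occasions, 4 and 2 days ahead of bleomycin (1 unit/kg) or PBS and again 4 days afterwards, the CAV1 TSB at 5 mg/kg. The dose of the control TSB and the time of lung collection were not given in the sources used here. Every group received a TSB, so no lung without an oligonucleotide was compared. The labels do not state that each sample was a separate animal, and the tests therefore use the spread among samples as deposited.

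Bleomycin is an anticancer drug that cuts DNA strands, and in the mouse lung it causes injury followed by fibrosis. Breaks in DNA activate kinases that stabilise p53, a transcription factor that binds a paired decamer in its target genes. Its targets arrest the cell cycle, trigger cell death, repair DNA, adjust metabolism and, through Mdm2, lower p53 itself.

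Signals are log2 values, 1 unit being a doubling, and levels of different genes cannot be compared because each probe binds differently. Across the 120 pairs of arrays the correlation over all spots ran from 0.973 to 0.997. The lung markers were present in every array, with a mean signal of 15.49 to 15.93 for alveolar type 2 genes and 13.20 to 13.81 for alveolar type 1 genes. Arrays fell apart in stratified squamous epithelium markers, whose mean was 10.80 to 12.05 in 11 arrays and 7.71 to 7.92 in 5, and skeletal muscle markers followed (9.99 to 12.5 against 6.91 to 8.25). The 5 low arrays were both of PBS with the CAV1 TSB, replicates 2 and 6 of bleomycin with the control TSB, and replicate 3 of bleomycin with the CAV1 TSB. Replicate 1 of bleomycin with the CAV1 TSB stood apart too, with a mean of 10.63 for monocyte-derived macrophage markers, within the 10.51 to 11.06 of the PBS arrays. Fewer cells of a type and less RNA per cell cannot be told apart in whole lung.

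The windows around the transcription starts (250 bases before to 50 after, RefSeq, GRCm38.p6) were searched for the p53 decamer consensus, whose reverse complement fits the same consensus. A window was present for 25 of the 33 genes, and 8 of these held the decamer, among them Gadd45a, Polk and Sesn1. Of their 34 windows 26.5% held it, against 8.36% of all 32851 windows. A pair of decamers set directly one after the other, with at least 19 of 20 letters matching, was found for Cdkn1a and Ccng1, and in 0.0883% of all windows. Windows of the 6 genes with a decamer that were called in any comparison are shown 5′ to 3′, with the pair (Cdkn1a, Ccng1) or the decamer (Mdm2, Aen, Ei24, Sesn1) in capitals. The Cdkn1a window shown, chr17:29090729-29091028 on the plus strand, lies at the upstream start of the gene, with the pair from position -51 to -32. A second Cdkn1a window, chr17:29093519-29093818 on the plus strand, held no decamer, and its best pair matched 15 of 20 letters. Ccng1 lies at chr11:40755237-40755536 on the minus strand. Mdm2 (chr10:117710709-117711008) and Ei24 (chr9:36797285-36797584) are on the minus strand and Aen (chr7:78895677-78895976) and Sesn1 (chr10:41887189-41887488) on the plus strand.
Cdkn1a: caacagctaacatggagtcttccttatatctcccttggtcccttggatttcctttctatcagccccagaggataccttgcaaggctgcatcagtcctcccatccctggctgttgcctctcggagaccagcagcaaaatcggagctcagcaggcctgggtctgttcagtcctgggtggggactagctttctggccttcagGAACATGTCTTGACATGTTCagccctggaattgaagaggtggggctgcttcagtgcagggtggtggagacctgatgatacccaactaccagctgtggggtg
Ccng1: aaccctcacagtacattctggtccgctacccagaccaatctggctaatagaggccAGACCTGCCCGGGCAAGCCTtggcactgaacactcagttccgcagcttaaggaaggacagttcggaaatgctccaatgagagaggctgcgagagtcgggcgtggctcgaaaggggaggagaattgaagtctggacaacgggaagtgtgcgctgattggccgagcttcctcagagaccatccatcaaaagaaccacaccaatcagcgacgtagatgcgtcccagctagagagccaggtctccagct
Mdm2: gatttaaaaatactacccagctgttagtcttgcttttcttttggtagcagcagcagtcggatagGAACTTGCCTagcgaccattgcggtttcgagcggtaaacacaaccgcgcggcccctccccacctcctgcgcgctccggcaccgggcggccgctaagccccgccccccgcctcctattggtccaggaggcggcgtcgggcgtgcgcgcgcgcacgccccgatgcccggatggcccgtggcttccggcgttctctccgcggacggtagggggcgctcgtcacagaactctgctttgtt
Aen: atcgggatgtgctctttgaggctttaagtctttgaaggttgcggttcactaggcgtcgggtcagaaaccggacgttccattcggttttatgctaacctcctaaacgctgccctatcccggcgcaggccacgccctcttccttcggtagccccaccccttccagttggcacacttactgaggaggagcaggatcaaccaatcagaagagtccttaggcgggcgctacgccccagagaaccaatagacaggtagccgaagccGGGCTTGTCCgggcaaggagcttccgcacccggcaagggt
Ei24: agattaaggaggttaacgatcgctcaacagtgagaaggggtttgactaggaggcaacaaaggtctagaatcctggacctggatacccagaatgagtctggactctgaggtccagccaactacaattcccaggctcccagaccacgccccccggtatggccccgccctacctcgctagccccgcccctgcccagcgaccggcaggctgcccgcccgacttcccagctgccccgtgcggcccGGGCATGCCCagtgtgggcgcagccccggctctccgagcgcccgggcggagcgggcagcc
Sesn1: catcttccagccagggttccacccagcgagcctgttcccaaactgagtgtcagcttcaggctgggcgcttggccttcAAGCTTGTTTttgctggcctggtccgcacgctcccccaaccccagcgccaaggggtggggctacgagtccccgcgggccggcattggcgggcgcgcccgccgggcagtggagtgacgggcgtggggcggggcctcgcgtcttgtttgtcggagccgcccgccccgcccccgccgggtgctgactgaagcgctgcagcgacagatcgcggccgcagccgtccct
A match describes letters and is not a measured binding site. The windows of Psrc1, Gdf15, Plk3, Phlda3, Sesn2 and Gadd45g held no decamer, which says only that it is not in these 300 bases.

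A set of p53 targets was higher in bleomycin lungs under both blockers. With the effects under both TSBs averaged, 13 of the 33 genes rose and Sesn1 fell (limma, Benjamini-Hochberg adjusted p under 0.05 over 20304 genes tested), against 4.25% of all genes risen and 1.68% fallen. Of these, 4 (Psrc1, Ccng1, Zmat3 and Aen) had all 12 bleomycin arrays above all 4 PBS arrays and 0 of the 33 the reverse, against 1.04% and 0.433% of all genes. Psrc1, Cdkn1a and Gdf15 rose most, by 1.74, 1.41 and 1.38 on the log2 scale. The median difference was 0.24 for the 33 genes and 0.007 for all genes tested. Both feedback genes, 4 of 10 arrest genes, 5 of 11 death genes, 2 of 5 stress genes and 0 of 5 repair genes rose. The genes were chosen with earlier results of these data known. The counts set against all genes therefore describe this list and do not test it.

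Taken separately, 6 genes rose and 0 fell with the control TSB, where 1.96% of all genes rose and 0.448% fell. They were Psrc1, Gdf15, Tnfrsf10b, Ccng1, Zmat3 and Aen. Fully apart from PBS were 15 genes higher and 1 lower, against 8.55% and 4.04% of all genes. With the CAV1 TSB, 6 rose and 0 fell as well, against 0.345% and 0.172% of all genes, namely Cdkn1a, Psrc1, Gdf15, Ccng1, Plk3 and Zmat3. Here 13 genes were fully apart and higher and 3 lower, against 8.38% and 12.3%. Psrc1, Gdf15, Ccng1 and Zmat3 are in both sets. The sets are not independent, since the fit pools the spread over all 16 arrays: a fit to the compared groups alone left 5 of the 6 calls with the control TSB (all but Aen) and 0 of the 6 with the CAV1 TSB. Both PBS arrays with the CAV1 TSB were low in squamous and muscle markers and 5 of the 6 bleomycin arrays were high. Median differences of the squamous and muscle lists (12 markers each) were 2.68 and 3.12, against -0.006 for all genes, with 0 markers called. With the marker state as a covariate, Psrc1 alone of the 6 passed with the CAV1 TSB, and 4 of 6 with the control TSB (all but Aen and Gdf15).

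**Figure D1:**
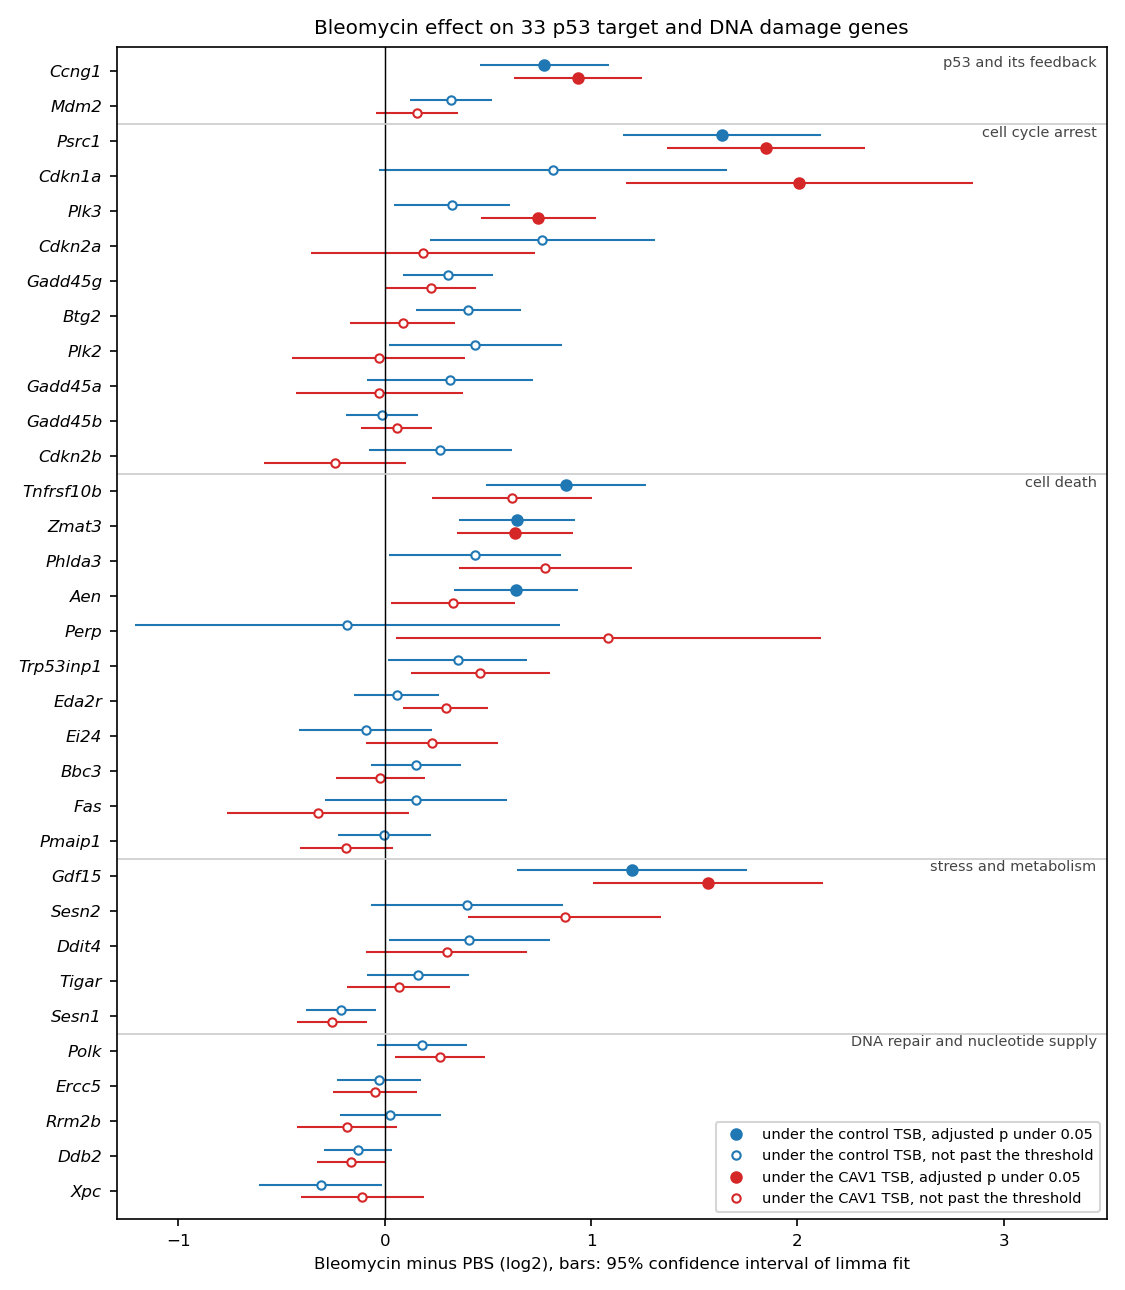
Difference between bleomycin and PBS (log2, horizontal axis) for the 33 genes, by role, under the control TSB (blue) and the CAV1 TSB (red), with 95% confidence intervals of the limma fit. Filled points passed an adjusted p of 0.05: 6 genes under each TSB, all to the right of 0.

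Among the feedback genes, Ccng1 encodes cyclin G1, a p53 target that acts on the Mdm2 loop. Its signal was 10.98 and 11.41 in the PBS arrays with the control TSB and 10.86 and 10.98 in those with the CAV1 TSB. After bleomycin it had a median of 11.98 (11.83 to 12.11) with the control TSB and 11.83 (11.52 to 12.19) with the CAV1 TSB. All 12 bleomycin arrays lay above all 4 PBS arrays. The rise was 0.77 (SE 0.15, adjusted p = 0.0187) with the control TSB and 0.94 (SE 0.15, adjusted p = 0.0219) with the CAV1 TSB.

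Mdm2, the ubiquitin ligase that marks p53 for destruction and is itself induced by it, moved little. It stood at 12.27 and 12.51 in PBS with the control TSB and at 12.38 and 12.49 in PBS with the CAV1 TSB. With bleomycin the median was 12.69 (12.65 to 12.82) and 12.57 (12.48 to 12.75) under the same blockers. Arrays overlapped, and 10 of 12 bleomycin arrays exceeded every PBS array. The averaged rise of 0.24 (SE 0.07, adjusted p = 0.0445) passed in 4 of 16 fits that left out 1 array each, and neither separate comparison passed (0.32, adjusted p = 0.0895, and 0.16, adjusted p = 0.461).

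Of the genes listed under arrest, Psrc1 changed most. It encodes a p53-regulated protein that binds mitotic microtubules. Of the 11 cell cycle markers measured 9 rose too (averaged comparison), where 4.25% of all genes did. Whether Psrc1 rose with arrest or with dividing cells was not tested. Its signal was 7.19 and 7.22 in PBS with the control TSB and 6.75 and 6.78 in PBS with the CAV1 TSB. It reached a median of 8.82 (8.70 to 8.98) after bleomycin with the control TSB and 8.75 (7.79 to 9.04) with the CAV1 TSB. No bleomycin array overlapped any PBS array. The rise was 1.63 (SE 0.23, 95% interval 1.15 to 2.11, adjusted p = 0.00557) and 1.85 (SE 0.23, 1.37 to 2.33, adjusted p = 0.00413) for the respective TSBs. Psrc1 passed both tests whichever of the 16 arrays was left out. With the control TSB it did not pass with array weights (1.64, adjusted p = 1) or among arrays with high squamous markers alone (1.64, adjusted p = 0.0609), and with the CAV1 TSB it did not in a fit to the compared groups alone (1.85, adjusted p = 0.0962). With the replicate number fitted as a block, Psrc1 passed with neither the control TSB (1.43, limma adjusted p = 0.244) nor the CAV1 TSB (1.65, adjusted p = 0.346). Its PBS signal was low on the array's scale, with group means at percentiles 60.0 and 54.3 of the signals of all spots.

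Cdkn1a encodes p21, the cyclin-dependent kinase inhibitor through which p53 halts the cycle. The PBS arrays with the control TSB read 11.28 and 12.52, and those with the CAV1 TSB 10.29 and 10.60. After bleomycin the median was 12.80 (12.13 to 13.04) with the control TSB and 12.38 (11.55 to 13.37) with the CAV1 TSB. The PBS arrays thus spread widely, and replicate 2 with the control TSB lay inside the bleomycin range, so that 7 of 12 bleomycin arrays exceeded every PBS array. The rise was 2.01 (SE 0.40, adjusted p = 0.0432, 4.03-fold on a linear scale) with the CAV1 TSB, a call that held in 4 of 16 fits with 1 array left out, and with the control TSB the difference was 0.81 (SE 0.40, adjusted p = 0.333). The averaged rise was 1.41 (SE 0.28, adjusted p = 0.00819).

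The array carried 12 Cdkn1a spots. The 10 of its main transcript, the tested spot among them, gave averaged rises of 1.37 to 1.48. A spot of the transcript from the upstream start, whose promoter is printed above, gave 0.79 and the remaining spot 0.86. Under the control TSB the same 10 spots gave 0.73 to 0.87 and the other 2 gave 0.75 and 0.80, and under the CAV1 TSB the values were 1.99 to 2.10, 0.82 and 0.92. These 2 were the dimmest of the 12 spots, with PBS means of 6.47 to 7.25, where the other 10 spots had PBS means of 10.13 and above. The spots read 1 RNA sample per array and are not replicates.

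Plk3, a stress-activated kinase, read 9.73 and 10.15 in PBS with the control TSB and 9.18 and 9.19 in PBS with the CAV1 TSB. Its median after bleomycin was 10.28 (10.19 to 10.33) with the control TSB and 9.99 (9.59 to 10.18) with the CAV1 TSB. Each bleomycin group lay above its own PBS group. The rise was 0.74 (SE 0.13, adjusted p = 0.0319) with the CAV1 TSB, and 0.33 (SE 0.13, adjusted p = 0.234) was measured with the control TSB. The call with the CAV1 TSB held in 6 of 16 fits with 1 array left out. The averaged rise of 0.54 (adjusted p = 0.00394) passed whichever array was left out.

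The 3 Gadd45 genes, whose products bind cell cycle and repair proteins under stress, differed among themselves. Gadd45g had PBS values of 13.24 and 13.31 with the control TSB and 13.10 and 13.22 with the CAV1 TSB, and bleomycin medians of 13.60 (13.34 to 13.74) and 13.37 (13.20 to 13.52). Of the 12 bleomycin arrays 11 exceeded every PBS array, and the averaged rise was 0.26 (SE 0.07, adjusted p = 0.0437), passing in 2 of 16 fits with 1 array left out. Gadd45a averaged 8.69 ± 0.54 (SD, n = 2) and 8.86 ± 0.07 (n = 2) in the PBS groups, and 9.00 ± 0.26 and 8.84 ± 0.15 (n = 6 each) after bleomycin. Gadd45b averaged 12.30 ± 0.10 and 12.30 ± 0.12 after PBS, and 12.29 ± 0.07 and 12.36 ± 0.07 after bleomycin. The averaged differences were 0.14 (adjusted p = 0.679) for Gadd45a and 0.02 (adjusted p = 0.905) for Gadd45b, and their arrays overlapped between PBS and bleomycin.

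Cdkn2a, the locus of p16 and Arf, and Cdkn2b, which encodes p15, are inhibitors known from senescent cells. Cdkn2a averaged 6.82 ± 0.42 and 7.29 ± 0.05 after PBS with the control and the CAV1 TSB, and 7.58 ± 0.23 and 7.47 ± 0.44 after bleomycin. Its averaged difference was 0.47 (SE 0.18, adjusted p = 0.16), and with the control TSB alone it was 0.76 (adjusted p = 0.143), where the 6 bleomycin arrays lay above both PBS arrays. A second, dimmer Cdkn2a spot, with group means of 5.86 to 6.07, gave 0.12 averaged and 0.04 with the control TSB. Cdkn2b averaged 11.61 ± 0.46 and 11.96 ± 0.04 after PBS and 11.88 ± 0.13 and 11.72 ± 0.21 after bleomycin, with an averaged difference of 0.01 (adjusted p = 0.975). Btg2, an antiproliferative p53 target (averaged difference 0.24, adjusted p = 0.116), and Plk2, a relative of Plk3 (0.20, adjusted p = 0.532), did not pass.

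**Figure D2:**
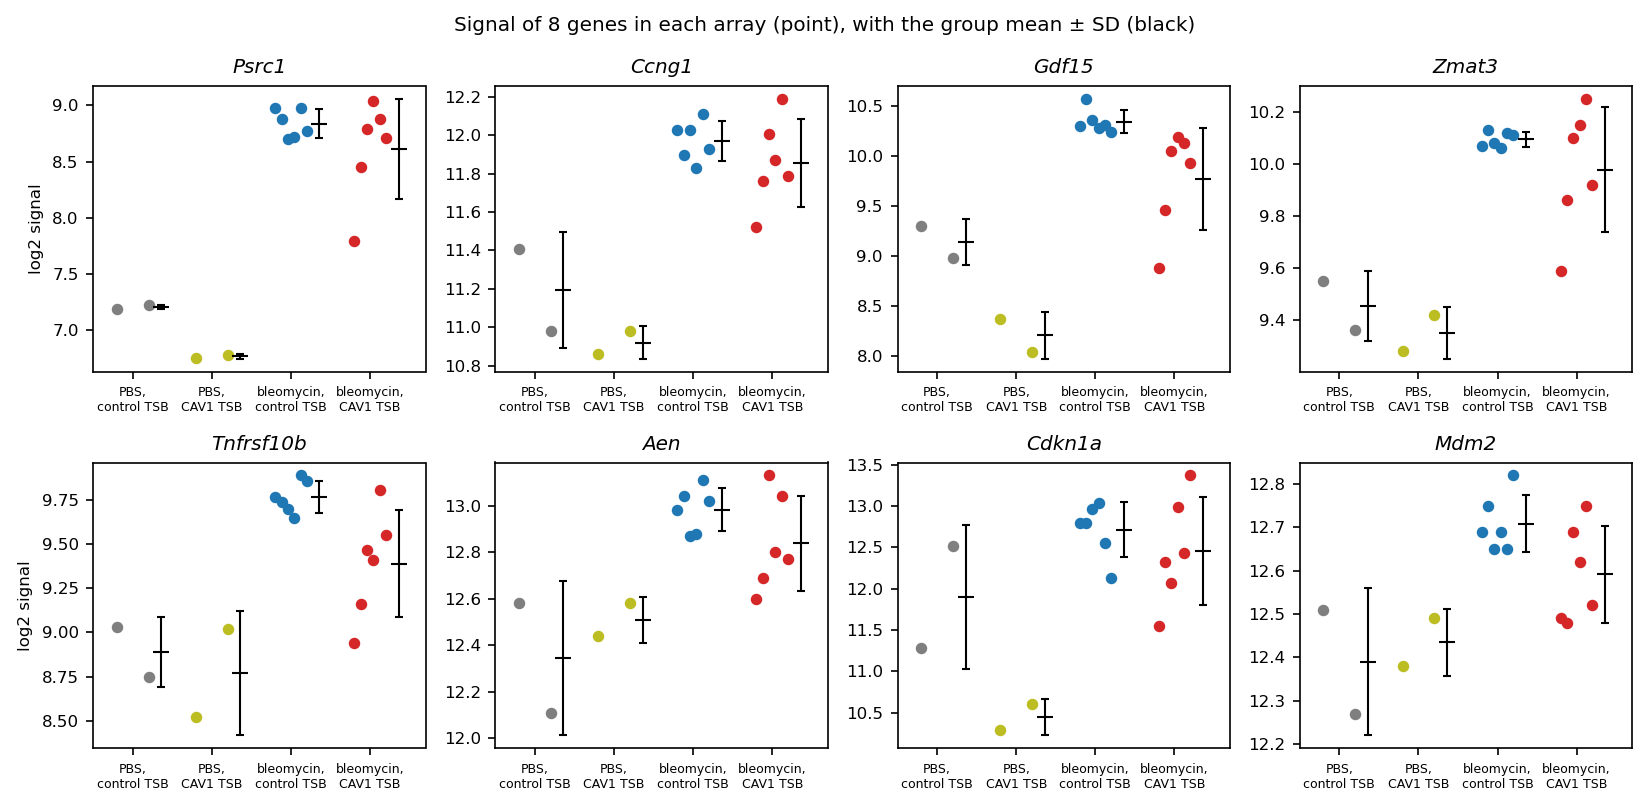
Log2 signal (vertical axis) of 8 genes in every array (points), with the mean ± SD of each group in black. All bleomycin arrays lie above all PBS arrays for Psrc1, Ccng1, Zmat3 and Aen, and the PBS arrays of Cdkn1a range from 10.29 to 12.52.

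Among the death genes, Tnfrsf10b encodes the mouse TRAIL death receptor. It read 8.75 and 9.03 in PBS with the control TSB and 8.52 and 9.02 in PBS with the CAV1 TSB. After bleomycin the median was 9.75 (9.65 to 9.89) with the control TSB and 9.44 (8.94 to 9.81) with the CAV1 TSB. One bleomycin array, replicate 1 with the CAV1 TSB, fell within the PBS range. The rise was 0.88 (SE 0.18, adjusted p = 0.0249) with the control TSB, and 0.62 (SE 0.18, adjusted p = 0.122) was measured with the CAV1 TSB.

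Zmat3, a zinc-finger RNA-binding protein induced by p53, read 9.36 and 9.55 in PBS with the control TSB and 9.28 and 9.42 in PBS with the CAV1 TSB. Bleomycin medians were 10.10 (10.06 to 10.13) and 10.01 (9.59 to 10.25). The 12 bleomycin arrays lay above the 4 PBS arrays, though replicate 1 of the CAV1 TSB group did so narrowly, at 9.59 against 9.55. The rise was 0.64 (SE 0.13, adjusted p = 0.0244) with the control TSB and 0.63 (SE 0.13, adjusted p = 0.0475) with the CAV1 TSB. The call with the CAV1 TSB held in 3 of 16 fits with 1 array left out, and ended with trend and robust moderation.

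Aen, an exonuclease that takes part in apoptosis, read 12.11 and 12.58 in PBS with the control TSB and 12.44 and 12.58 in PBS with the CAV1 TSB. Its bleomycin medians were 13.00 (12.87 to 13.11) and 12.78 (12.60 to 13.13), again without overlap but with a narrow gap in the CAV1 TSB group. It rose by 0.64 (SE 0.14, adjusted p = 0.0319) with the control TSB, and the difference with the CAV1 TSB was 0.33 (SE 0.14, adjusted p = 0.281).

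Phlda3, an inhibitor of Akt signalling, had PBS values of 13.17 and 13.50 with the control TSB and 12.69 and 12.94 with the CAV1 TSB, and bleomycin medians of 13.84 (13.42 to 13.93) and 13.60 (13.06 to 13.98). Trp53inp1, which promotes p53-dependent death and autophagy, had 11.12 and 11.24, 10.93 and 11.05 after PBS, and medians of 11.51 (11.25 to 11.86) and 11.47 (11.15 to 11.79) after bleomycin. Of the 12 bleomycin arrays, 8 exceeded every PBS array for Phlda3 and 11 for Trp53inp1. The averaged rises were 0.61 (SE 0.14, adjusted p = 0.017) and 0.41 (SE 0.11, adjusted p = 0.044), while neither gene passed under 1 TSB alone.

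The remaining 6 death genes did not pass in the averaged comparison, with differences from -0.09 to 0.45 and adjusted p from 0.169 to 0.850. They included Bbc3 (Puma, 0.07, adjusted p = 0.744) and Pmaip1 (Noxa, -0.09, adjusted p = 0.61), which disable Bcl-2 relatives, and the death receptor Fas (-0.09, adjusted p = 0.85). Ei24, a membrane protein of the endoplasmic reticulum linked to p53 and autophagy, differed by 0.07 (adjusted p = 0.835). Eda2r, the ectodysplasin A2 receptor, stayed within 5.73 to 6.24 over all 16 arrays, near the 5.97 to 5.99 of the dim filter. Perp, a desmosome-associated p53 target, had the largest uncalled difference.

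Of the stress and metabolism genes, Gdf15, a secreted stress cytokine, rose most. It read 8.98 and 9.30 in PBS with the control TSB and 8.04 and 8.37 in PBS with the CAV1 TSB. The medians after bleomycin were 10.31 (10.24 to 10.57) and 9.99 (8.88 to 10.19). In 11 of 12 bleomycin arrays the signal exceeded every PBS array, the exception being replicate 1 with the CAV1 TSB. It rose by 1.2 (SE 0.26, adjusted p = 0.03) with the control TSB and by 1.57 (SE 0.26, adjusted p = 0.0277) with the CAV1 TSB.

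The sestrins, which restrain the growth kinase mTORC1 under stress, moved in opposite directions. Sesn2 read 10.63 and 11.38, 10.37 and 10.44 in the PBS groups, with bleomycin medians of 11.49 (11.06 to 11.63) and 11.26 (10.88 to 11.64), and 6 of 12 bleomycin arrays exceeded every PBS array. Sesn1 read 11.31 and 11.34 in PBS with the control TSB and 11.38 and 11.54 in PBS with the CAV1 TSB, with bleomycin medians of 11.11 (11.02 to 11.19) and 11.20 (11.07 to 11.33). The averaged rise of Sesn2 was 0.64 (SE 0.15, adjusted p = 0.0243). Sesn1 fell by 0.23 (SE 0.06, adjusted p = 0.0226), a call that ended without replicate 1 of PBS with the CAV1 TSB (adjusted p = 0.173). Ddit4, another inhibitor of mTORC1 (0.35, adjusted p = 0.14), and Tigar, which limits glycolysis (0.11, adjusted p = 0.563), did not pass.

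No DNA repair gene passed in the main fit of any of the bleomycin comparisons. The averaged differences were -0.15 for Ddb2 (adjusted p = 0.151) and -0.21 for Xpc (adjusted p = 0.289), both damage sensors of nucleotide excision repair, and -0.04 for the nuclease gene Ercc5 (adjusted p = 0.856). Polk, a polymerase that copies past lesions, differed by 0.22 (adjusted p = 0.0894), and Rrm2b, the p53-inducible ribonucleotide reductase subunit, by -0.08 (adjusted p = 0.722). The 95% intervals were -0.26 to -0.03 for Ddb2 and 0.07 to 0.38 for Polk, each before adjustment for the number of genes tested. Polk passed the averaged test without replicate 1 of bleomycin with the CAV1 TSB, and the test under the CAV1 TSB when array weights were used. A second, dimmer Polk spot gave 0.003 averaged, -0.20 with the control TSB and 0.21 with the CAV1 TSB.

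**Figure D3:**
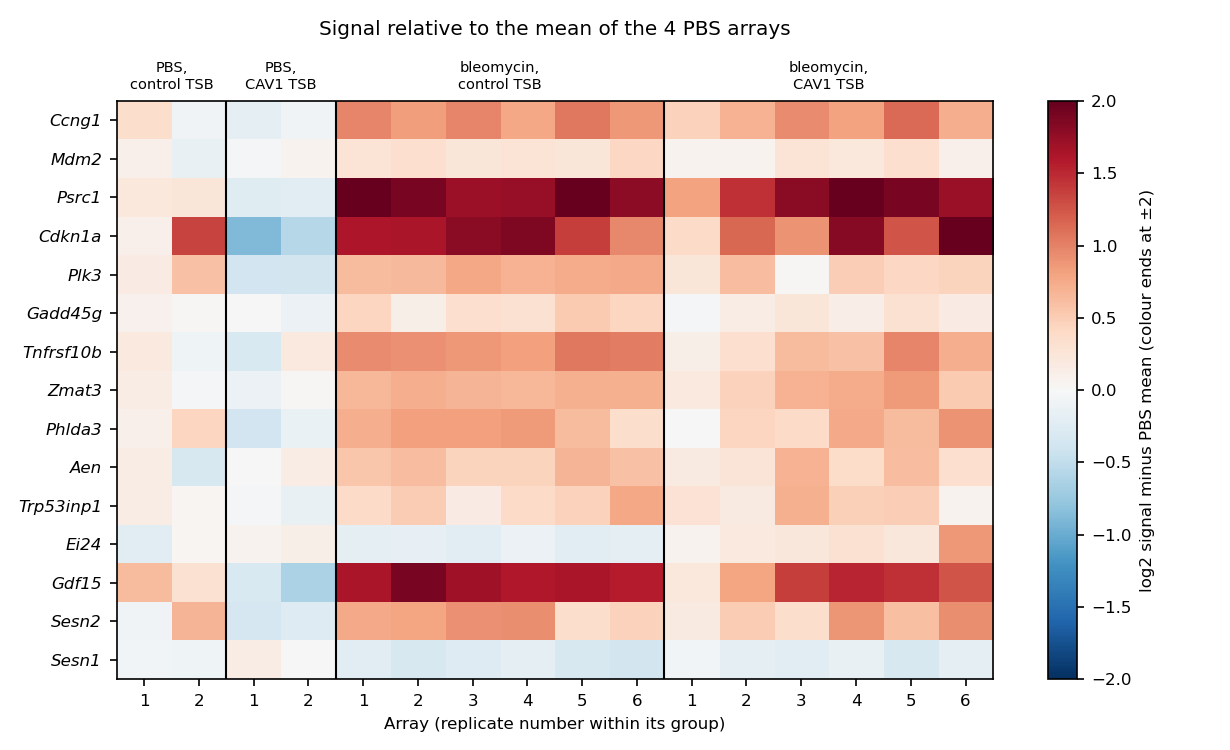
Log2 signal minus the mean of the 4 PBS arrays (colour, red higher, ending at ±2) for the 15 genes called in at least 1 comparison, in each of the 16 arrays (columns, replicate numbers within groups). Replicate 1 of bleomycin with the CAV1 TSB is paler than the other bleomycin arrays in most rows, and Ei24 differs between the bleomycin groups.

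The rises were uneven across the bleomycin arrays. Replicate 1 with the CAV1 TSB had the lowest signal of the 12 in 10 of the 13 risen genes and exceeded all PBS arrays in 5 of them. The other arrays of that group did so in 9 to 12 of the 13, and those with the control TSB in 10 to 13. In that replicate the mean of the cell cycle markers was 8.30, within the 7.79 to 8.36 of the PBS arrays, against 8.76 to 9.33 with bleomycin and the control TSB. Without it, 9 genes passed under the CAV1 TSB, with Phlda3, Sesn2 and Tnfrsf10b added.

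Markers of other cells moved with bleomycin. Of the 11 cell cycle markers measured 9 rose (averaged comparison), and of 9 monocyte-derived macrophage markers 7 rose, their mean lying at 10.51 to 11.06 after PBS, 12.27 to 12.53 after bleomycin with the control TSB and 10.63 to 12.24 with the CAV1 TSB, where 4.25% of all genes rose in the averaged comparison. Of 7 endothelial markers 1 fell, where 1.68% of all genes did, and their median difference was -0.31 against 0.007 for all genes. Their means were 12.29 to 12.85 after PBS, 11.94 to 12.42 after bleomycin with the control TSB and 12.01 to 12.64 with the CAV1 TSB. The part of these cells in the rises of Psrc1, Gdf15 and the other genes was not tested.

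Some calls ended when 1 array was left out, and each PBS group had 2, so a fit without a PBS array rests on 1 in its group. Of the genes named as added below, Xpc was lower after bleomycin (-0.31 with the control TSB over all arrays). Psrc1, Gdf15, Ccng1, Plk3, Tnfrsf10b and Zmat3 passed the averaged test in all 16 fits with 1 array left out. Under the control TSB, 1 gene (Psrc1) passed without PBS replicate 2, 2 (Psrc1 and Ccng1) without bleomycin replicate 1, 4 without bleomycin replicate 2 or 5, and 11 without PBS replicate 1, with Cdkn2a, Cdkn2b, Gadd45a, Mdm2 and Xpc added. Under the CAV1 TSB, Psrc1 alone passed without either PBS array or without bleomycin replicate 4. In that comparison 2 passed without bleomycin replicate 5 or 6, 3 without its replicate 2 or without replicates 1, 2, 3 or 4 of the control TSB, and 4 without its replicate 3 or replicate 5 of the control TSB. The averaged count was 6 without PBS replicate 1 of the CAV1 TSB, where Cdkn1a came to an adjusted p of 0.0611, Aen to 0.0779, Phlda3 to 0.125 and Sesn2 to 0.127. The averaged calls also ended for Aen without PBS replicate 2 of the control TSB (adjusted p = 0.0529), for Phlda3 and Sesn2 without its replicate 1 (0.0545 and 0.0947), and for Sesn2 without PBS replicate 2 of the CAV1 TSB (0.0806). Trp53inp1 passed in 6 of the 16 fits. Without bleomycin replicate 6 of the control TSB, Aen did not pass under the control TSB (0.0504), nor Zmat3 under the CAV1 TSB (0.0592).

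Beyond the 33, a list of 54 other genes of the pathway had 52 with a spot, all tested. In the averaged comparison 5 rose and 0 fell, against 4.25% and 1.68% of all genes. This list, too, was chosen with earlier results of these data known. Ckap2, a mitotic spindle protein, rose by 1.19 (SE 0.18, adjusted p = 0.0022) and also passed under each TSB alone, by 1.12 (adjusted p = 0.0344) and 1.26 (adjusted p = 0.0432). Chek2, the checkpoint kinase that phosphorylates p53, rose by 0.38 (adjusted p = 0.0217), and Rps27l, a ribosomal protein paralog induced by p53, by 0.32 (adjusted p = 0.0288). Sesn3, the third sestrin, rose by 0.45 (adjusted p = 0.0408), and Gtse1, which shuttles p53 out of the nucleus, by 0.40 (adjusted p = 0.0469). Gtse1 read 5.89, 6.26, 5.89 and 5.93 in the PBS arrays, 3 of them below the 5.97 to 5.99 of the dim filter, so its difference is taken against a signal at that limit. In the averaged test Ckap2 passed whichever array was left out, Sesn3 in 6 of 16 fits and Gtse1 in 5, while the separate Ckap2 calls held in 10 of 16 fits with the control TSB and 4 with the CAV1 TSB. Among regulators and relatives of p53, 0 of 10 were called by limma, with a median averaged difference of -0.06 against 0.007 for all genes. The median averaged difference of the 52 was 0.08.

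The CAV1 TSB was compared with the control TSB after bleomycin to ask whether blocking the Cav1 site changed the response. One of the 33 genes differed, Ei24, which was higher with the CAV1 TSB, where 1.2% of all genes were higher and 0.414% lower. A count of 1 in 33 is near these shares, so it describes Ei24 and not the 33 genes as a group. Ei24 read 9.35 to 9.46 (median 9.39) in the 6 control TSB arrays and 9.65 to 10.45 (median 9.81) in the 6 CAV1 TSB arrays. The groups did not overlap. The difference was 0.50 (SE 0.11, 95% interval 0.27 to 0.73, limma adjusted p = 0.0229).

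The level of Ei24 after PBS was 9.36 and 9.62 with the control TSB and 9.65 and 9.69 with the CAV1 TSB, a difference of 0.18 (adjusted p = 0.627). The call after bleomycin ended without replicate 1, 3, 5 or 6 of the control TSB (adjusted p = 0.0581, 0.0579, 0.0573 and 0.0501) and without replicate 4 of the CAV1 TSB (adjusted p = 0.0523), while the difference stayed between 0.49 and 0.50 in these fits. Among the arrays with high squamous markers alone, the difference was as large, 0.53 (adjusted p = 0.23). Without replicate 1 of the CAV1 TSB the difference was 0.55 (adjusted p = 0.0145). Across all alternatives it ran from 0.39 to 0.55. Replicate 6 of the CAV1 TSB read 10.45, where the next array of its group read 9.89, and the call held without that array.

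In 24 of the 33 genes the fitted difference after bleomycin was negative, with a median of -0.11 against -0.01 for all genes. More of all genes thus lay below 0 than above it too. With all spots of a gene averaged, 21 of the 33 were negative. At an unadjusted p under 0.05, 1 was higher and 5 were lower, where 4.48% and 4.6% of all genes were. The lower ones were Gdf15 (-0.57, adjusted p = 0.224), Tnfrsf10b (-0.38, adjusted p = 0.254), Plk3 (-0.33, adjusted p = 0.117), Btg2 (-0.31, adjusted p = 0.111) and Gadd45g (-0.20, adjusted p = 0.318). None passed, although every CAV1 TSB array lay below every control TSB array for Gdf15 and Plk3, by narrow gaps (10.19 against 10.24 and 10.18 against 10.19). Groups lay fully apart in 1 gene higher and 2 lower, against 1.5% and 0.832% of all genes. Without replicate 1 of the CAV1 TSB, Gdf15 differed by -0.39 (adjusted p = 0.249) and 22 of the 33 differences were negative, with a median of -0.07. Without its replicate 4, Btg2 passed in place of Ei24. Macrophage markers were lower with the CAV1 TSB as well, 1 of 9 by the adjusted test and 6 of 9 at an unadjusted p under 0.05, and their part in these differences was not tested.

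**Figure D4:**
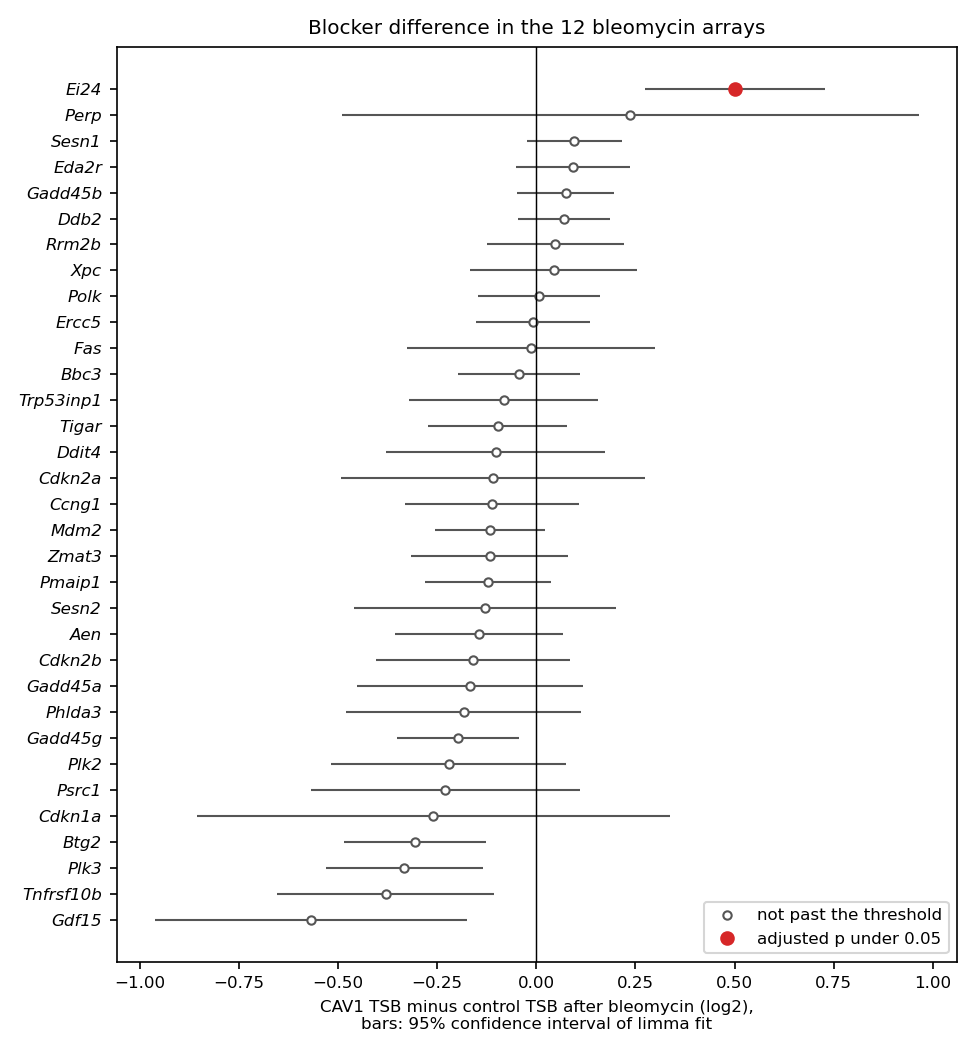
Difference between the CAV1 TSB and the control TSB in the 12 bleomycin arrays (log2, horizontal axis) for the 33 genes, in order of size, with 95% confidence intervals of the limma fit. Ei24 (filled, 0.50) passed the adjusted test, and 24 of the 33 points lie left of 0.

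After PBS alone, 0 of the 33 genes differed between the TSBs by limma, where 0.276% of all genes were higher and 0.0345% lower with the CAV1 TSB. At an unadjusted p under 0.05, 0 were higher and 5 lower (8.26% and 4.55% of all genes), namely Cdkn1a (-1.46, adjusted p = 0.313), Gdf15 (-0.94, adjusted p = 0.325), Plk3 (-0.75, adjusted p = 0.067), Sesn2 (-0.60, adjusted p = 0.386) and Phlda3 (-0.52, adjusted p = 0.389). The same PBS arrays enter the bleomycin comparisons. Groups of 2 were fully apart in 11 genes lower and 6 higher, against 14.7% and 23.7% of all genes. Squamous and muscle markers differed with the same arrays, 10.80 to 11.77 against 7.71 to 7.81 for the squamous mean, and their part was not tested. Without replicate 1 of the control TSB, Cdkn1a (-2.08, adjusted p = 0.0251), Plk3 (-0.96, adjusted p = 0.00959) and Sesn2 (-0.98, adjusted p = 0.035) were lower and Cdkn2b higher (0.67, adjusted p = 0.0351), a fit that lends the 1 array left the spread of the other groups. The second Cdkn2b spot went the other way over all PBS arrays, with means of 9.79 with the CAV1 TSB and 9.99 with the control TSB. Without replicate 3 of bleomycin with the CAV1 TSB, Plk3 passed.

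Whether the bleomycin effect itself differed between the TSBs was tested as an interaction. By limma 0 of the 33 genes passed, as did 0% of all genes, and with no adjustment 2 were higher and 1 lower (p under 0.05), where 3.22% and 6.01% of all genes were. The effect was larger with the CAV1 TSB by 1.2 for Cdkn1a (95% interval 0.00 to 2.39, adjusted p = 0.497) and by 0.42 for Plk3 (0.02 to 0.81, adjusted p = 0.497). It was smaller by 0.51 for Cdkn2b (difference -0.51, -1.0 to -0.02, adjusted p = 0.497). A second Cdkn2b spot did not show this, with bleomycin differences of 0.01 with the control TSB and 0.13 with the CAV1 TSB. For Cdkn1a the 10 spots of the main transcript gave 0.73 to 0.87 with the control TSB and 1.99 to 2.10 with the CAV1 TSB. Its 2 dimmest spots gave 0.75 and 0.80 with the control TSB, and 0.82 and 0.92 with the CAV1 TSB. The effects on Zmat3 differed by -0.01 (-0.41 to 0.38) and those on Psrc1 by 0.21 (-0.47 to 0.89). Without PBS replicate 1 of the control TSB, Cdkn2b (-0.83, adjusted p = 0.0342) and Plk3 (0.62, adjusted p = 0.0478) passed.

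Perp varied with the squamous markers within both bleomycin groups. It read 13.30 and 11.77 in PBS with the control TSB, 11.44 and 11.58 in PBS with the CAV1 TSB, and medians of 12.73 (11.50 to 12.84) and 12.64 (11.60 to 13.44) after bleomycin. Within bleomycin and the control TSB the 4 arrays with high squamous markers averaged 12.77 and the 2 with low markers 11.51, a difference of 1.26. With the CAV1 TSB the 5 high arrays averaged 12.79 and the 1 low array read 11.60, 1.19 lower. The same differences were 0.37 and 0.46 for Cdkn1a, 0.02 and -0.21 for Psrc1, and -0.02 and 0.11 for Ei24. PBS replicate 2 of the control TSB, with high squamous markers, had a Perp signal near the low arrays. The bleomycin difference of Perp was -0.18 (adjusted p = 0.884) with the control TSB and 1.08 (adjusted p = 0.307) with the CAV1 TSB, whose PBS arrays both had low markers.

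**Figure D5:**
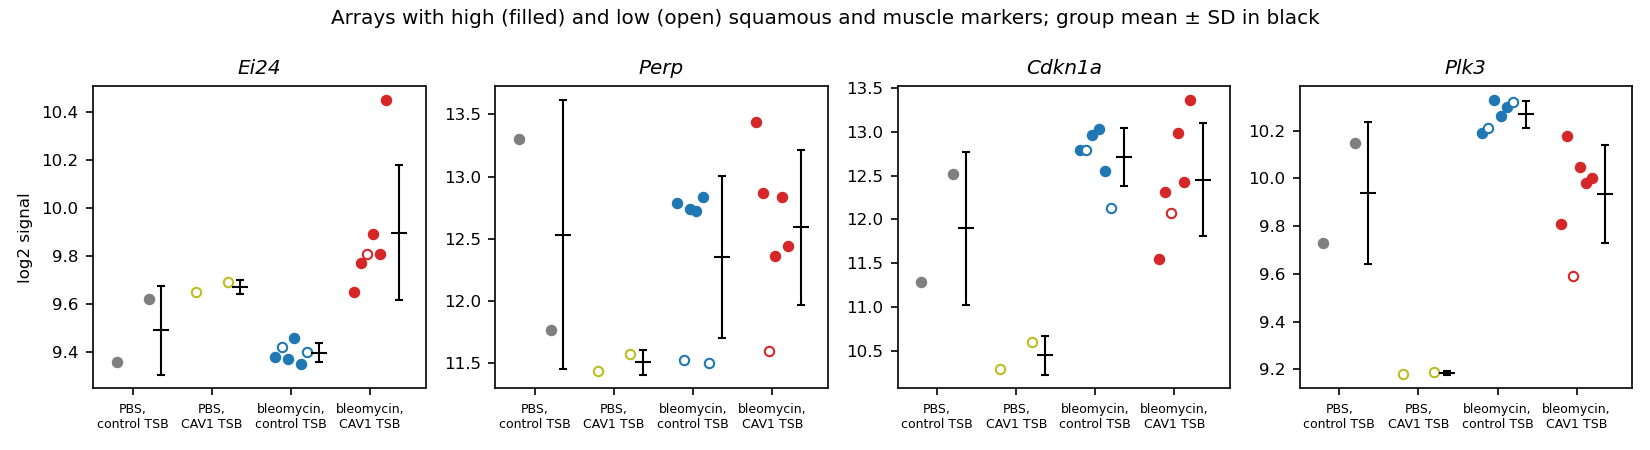
Log2 signal (vertical axis) of Ei24, Perp, Cdkn1a and Plk3 in each array, filled where squamous and muscle markers were high and open where they were low, with the group mean ± SD in black. The open points after bleomycin lie lowest for Perp, at 11.50 to 11.60, and among the other points of their groups for Ei24.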

How the data were processed

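RNA of 16 lung samples was measured on 1-colour Agilent arrays. The deposited log2 intensities were made by the authors with limma, per the submitters' processing notes. Version and background correction were not given in the sources used here. The values were used as deposited, not centred per gene. Of 62976 spots, 31465 had 1 symbol, and 29036 of these were matched by accession, which changed the symbol of 2933. Tested genes exceeded their array's 25th percentile on 2 or more arrays. Group means were estimated jointly from the 16 arrays (limma 3.58.1, R 4.3.3, 12 residual degrees of freedom), with two-sided moderated tests and Benjamini-Hochberg adjustment over 20304 genes. The number of arrays limits the precision. The scripts were tested on simulated data.

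The genes and lists were chosen with earlier results of these data known. Given in full are genes called in any comparison plus Mdm2, Cdkn1a, Cdkn2a, Cdkn2b and the Gadd45 genes, and of the other pathway list the called genes and the 3 with the smallest p per bleomycin comparison. The arrays were also split by squamous marker mean (above or below 8.5). Alternatives, 27 in all, covered filters, spots, scaling, moderation, array weights, samples fitted, a block, the marker state and each array left out.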

Additional observations from a re-analysis of the deposited data

Results flagged for a closer look

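The values of 2 genes lay far from the rest of their group, of 40 pairs of gene and bleomycin group examined by the gap to the nearest array over the whole range. Chance gives about 1 in 20. Ei24 read 10.45 in replicate 6 of bleomycin with the CAV1 TSB, where the next array read 9.89. Gdf15 read 10.57 in replicate 2 of bleomycin with the control TSB, where the next read 10.36.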

How the results depend on the processing

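Leaving out 1 array at a time gave 1 to 11 called genes of the 33 for bleomycin with the control TSB, 1 to 9 with the CAV1 TSB, 6 to 15 averaged, 0 to 1 between the TSBs after bleomycin, 0 to 4 between them after PBS, and 0 to 2 for the interaction. Array weights gave 0, 14 and 6 for the first 3 of these. A fit to the compared groups alone gave 0 with the CAV1 TSB. The marker state as a covariate gave 1 with the CAV1 TSB. Only the arrays with high squamous markers gave 0 with the control TSB and 0 between the TSBs after bleomycin, and could not be run where both PBS arrays of the CAV1 TSB were needed. With the replicate number as a block, 0 genes passed with either TSB and 1 (Psrc1, adjusted p = 0.0478) averaged. Same-numbered arrays of different groups had a median correlation of deviations from the group means of 0.038 (-0.69 to 0.436 over 16 pairs). Arrays with other numbers had -0.0115 (-0.693 to 0.81 over 72 pairs). These values cannot tell whether the numbers pair the samples, since the 2 deviations within each PBS group mirror each other. The cause of these moves was not tested. No filter or a 50th percentile filter, averaged spots, renewed quantile normalization, median centring and trend with robust moderation kept every count within 1.5 times. Of the single-gene values followed (called genes, with the Cdkn2 and Gadd45 genes in the averaged comparison), 732 kept direction and side of the threshold, 232 kept direction but no longer passed, and 9 changed sign, none of them called. These were averaged differences near 0: Cdkn2b (-0.029 with the block, and -0.147 to 0.176 with 1 array left out), Gadd45b (-0.018 to 0.063 with 1 array left out) and Gadd45a (-0.045 to 0.334). Over all 33 genes, uncalled differences changed sign too: after PBS, 16 of the 33 differences between the TSBs were negative, and 23 with the marker state as a covariate.

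Groups of 2 PBS arrays limit every bleomycin comparison. Rrm2b, Eda2r and Cdkn2a were dim, as was Psrc1 after PBS.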

Other observations

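Of the other pathway genes that did not pass, Sfn (14-3-3 sigma, an epithelial cell cycle inhibitor) had an averaged bleomycin difference of 0.79 (adjusted p = 0.0839), and it was lower with the CAV1 TSB after PBS by -1.40 (adjusted p = 0.279), where both arrays had low squamous markers. Lif, a cytokine, differed by 0.50 (adjusted p = 0.0772) with the control TSB and by 0.10 (adjusted p = 0.799) with the CAV1 TSB, and Siva1, an apoptosis regulator, by 0.21 averaged (adjusted p = 0.0894).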
